A study of Mus musculus with 2 samples.

Results

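The genes described here encode 9 histone acetyltransferases and transcriptional coactivators: Ep300, Crebbp, Kat2a, Kat2b, Kat5, Kat6a, Ncoa1, Ncoa2 and Ncoa3. They were taken by name from the 21728 protein-coding gene names of the annotation, not by a cut on any measured value. Earlier results from these data were known when they were chosen. A binding peak was assigned to a gene when its summit lay inside the gene or within 50 kb of any of its transcription start sites (TSSs). By this rule 29 of the 17043 reproducible EP300 peaks (the optimal list) on chromosomes 1 to 19 and X belonged to the 9 genes. Reproducible is only the name used here for this list: 84.3% of its peaks had a summit within 100 bp in both library lists.

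The peaks came from chromatin immunoprecipitation and sequencing (ChIP-seq) with an antibody against EP300, the product of the first gene on the list. The chromatin was from liver of B6NCrl strain mouse embryos aged 14.5 days, with males and females pooled and livers from several dissections ground together; the labels name no treatment and no genetic change. Both libraries, replicates 1 and 2, form the only group and share 1 biosample label, so the spread between them may be technical. The lists hold no read totals, and sequencing depth is therefore unknown.

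EP300 and its close relative CBP, the product of Crebbp, bind to transcription factors at enhancers and promoters and acetylate histones there, chiefly histone H3 and also the factors themselves. KAT2A (GCN5) and KAT2B (PCAF) are catalytic subunits of the SAGA and ATAC complexes, whereas KAT5 (TIP60) and KAT6A (MOZ) belong to the MYST family and work within the NuA4 and MOZ complexes. NCOA1, NCOA2 and NCOA3 are the p160 coactivators, which nuclear hormone receptors recruit and which in turn recruit EP300 and CBP. In the fetal liver, then the main site of blood formation, EP300 and CBP are known partners of the erythroid factor GATA1, and MOZ is needed for blood stem cells.

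The sequences at the 3 peaks of Ep300 itself and at the strongest peak of each other gene except Kat6a are shown first, because the account below turns on which of them carry GATA motifs. They are read from the plus strand of the mm10 (GRCm38) genome of RefSeq, 5′ to 3′, with 50 bases on each side of the summit. For the peak at the Ep300 promoter, the bases from the start of the peak to the base before the first annotated TSS are given instead. Capitals mark GATA motifs that lie whole within the bases shown; a GATA motif here is GATA with A or T before it and A or G after it, on either strand. In the Ep300 promoter they mark the NF-Y motif CCAAT or its reverse complement, and the sequences in lower case alone hold no GATA motif of this form.
Ep300 upstream peak (chr15:81577758-81577858): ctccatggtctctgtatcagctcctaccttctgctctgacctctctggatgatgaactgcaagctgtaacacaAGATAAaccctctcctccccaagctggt
Ep300 far upstream peak (chr15:81538359-81538459): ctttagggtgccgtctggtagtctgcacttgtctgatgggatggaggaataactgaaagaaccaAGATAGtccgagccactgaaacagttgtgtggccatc
Ep300 promoter peak (chr15:81585185-81585350): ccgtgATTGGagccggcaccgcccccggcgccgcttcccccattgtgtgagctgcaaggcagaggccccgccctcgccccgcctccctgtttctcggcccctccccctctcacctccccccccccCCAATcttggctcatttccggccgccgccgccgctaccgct
Crebbp intron peak (chr16:4169669-4169769): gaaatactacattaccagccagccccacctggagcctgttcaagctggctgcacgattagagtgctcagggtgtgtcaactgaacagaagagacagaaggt
Kat2a, at the Rab5c promoter (chr11:100738346-100738446): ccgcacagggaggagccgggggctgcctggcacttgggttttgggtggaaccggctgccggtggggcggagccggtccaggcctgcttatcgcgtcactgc
Kat2b upstream peak (chr17:53554999-53555099): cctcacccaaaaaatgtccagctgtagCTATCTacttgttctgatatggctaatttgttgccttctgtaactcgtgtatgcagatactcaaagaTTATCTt
Kat5 upstream peak (chr19:5613128-5613228): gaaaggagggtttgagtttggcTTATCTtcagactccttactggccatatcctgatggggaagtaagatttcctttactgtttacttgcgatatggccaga
Ncoa1 upstream peak (chr12:4502033-4502133): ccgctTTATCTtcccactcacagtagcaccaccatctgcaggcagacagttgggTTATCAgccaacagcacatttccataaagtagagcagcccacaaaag
Ncoa2 intron peak (chr1:13154596-13154696): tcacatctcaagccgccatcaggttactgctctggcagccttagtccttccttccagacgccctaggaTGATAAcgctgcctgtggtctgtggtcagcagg
Ncoa3 far upstream peak (chr2:165945075-165945175): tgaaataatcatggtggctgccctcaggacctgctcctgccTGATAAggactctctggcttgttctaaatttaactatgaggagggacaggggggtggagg

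EP300 was bound near its own gene. Ep300 (ENSMUSG00000055024.12) lies on the plus strand at chr15:81585351-81652077 and had 3 peaks: a strong one upstream, a weak one far upstream and a weak one at its own promoter. The upstream peak, at chr15:81577767-81577852, was intergenic, with its summit 7543 bp before the TSS. A TSS of 1110025M09Rik, which is not a protein-coding gene, was slightly nearer, at 7220 bp. The signal of the upstream peak was 109 in the list of reproducible peaks, rank 3080. Ranks in this list are among all its 17055 entries, including those on other chromosomes. The signal is the authors' own value for each peak, each list has its own scale, and values are compared here only inside the list they come from.

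Both libraries held the upstream peak high in their lists of 300000 entries. In replicate 1 its signal was 45.9, at rank 3654, and in replicate 2 it was 58.0, at rank 2973. It had 1 GATA motif, centred 25.5 bp from the summit, and repeat-masked sequence made up 51.7% of the bases within 100 bp of the summit. Of all reproducible peaks, 4.14% were masked over most of this window.

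The far upstream peak, at chr15:81538239-81538578, had its summit 46942 bp before the TSS, just inside the window. Its signal was 20.7, rank 13525. The libraries placed it less evenly than the upstream peak, at a signal of 12.8 and rank 12647 in replicate 1 and a signal of 8.27 and rank 22684 in replicate 2. It held 2 GATA motifs, the nearer centred 16.5 bp from the summit.

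At the Ep300 promoter, the peak at chr15:81585185-81585524 had its summit 4 bp after the first TSS, in the first exon. It was the weakest of the 29 peaks, with a signal of 13.4 and rank 15953. Replicate 1 had a summit within 100 bp, with a signal of 8.25 at rank 20761. Replicate 2 had none within that distance, and its closest summit, 211 bp away, had a signal of 13.4 at rank 12673. Replicate 1 also had a weak entry near that position, 249 bp before the TSS, with a signal of 3.94 at rank 176046.

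The list pooled from both libraries showed the same spread of summits along the Ep300 promoter. It had 3 entries there, at 204 bp before, 4 bp after and 1011 bp after the TSS, with signals of 17.5, 13.4 and 14.9. Of these, the weakest was the one kept in the reproducible list. Replicate 1 had 4 entries within 1 kb of this TSS, of which the highest, 974 bp after it, reached 10.9 at rank 14717. Replicate 2 had a single one. Within 100 bp of the summit the promoter sequence was 66.7% G and C and had no GATA motif.

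Within 100 kb of Ep300, the strongest EP300 peak lay just outside the window. It was an intergenic peak at chr15:81530616-81530806, 54631 bp before the TSS and with Ep300 as its nearest coding gene. Its signal was 208, rank 1203. Its rank was 1245 in replicate 1, with a signal of 100.2, and 1151 in replicate 2, with a signal of 108. Of the other 4 peaks between 50 and 100 kb from an Ep300 TSS, 2 were at the Rangap1 promoter with signals of 7.58 and 29.9. The other two were intergenic, nearest to Rbx1, with signals of 10.6 and 17.9.

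Crebbp (ENSMUSG00000022521.10), which encodes CBP, had 5 peaks, the most of the 9 genes. It lies on the minus strand at chr16:4081328-4213997. Of its peaks, 3 were in its introns and the other two lay past its 3′ end, at the neighbouring gene Trap1, which encodes a mitochondrial chaperone. No reproducible peak lay at its promoter, and the pooled list had no entry within 1 kb of its first TSS.

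The strongest Crebbp peak, at chr16:4169630-4169804, was in an intron, 44278 bp into the gene. Its signal was 147, rank 2106. Replicate 1 gave it a signal of 66.5 at rank 2350, and replicate 2 a signal of 79.7 at rank 1958. Both libraries therefore placed it close together and near the top. It had no GATA motif within 100 bp of the summit, not even the bare letters GATA on either strand, and was the strongest of the 8 peaks of the 9 genes that lacked the motif.

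The other intron peaks of Crebbp were weaker and similar to each other. The peak at chr16:4199943-4200282 had a signal of 42.2, rank 7887. Its signal was 28.1 in replicate 1, at rank 6066, and 18.5 in replicate 2, at rank 9413. The libraries ordered this pair of peaks differently: that at chr16:4175182-4175521, with a reproducible signal of 39.2, ranked 10100 in replicate 1 (signal 16.3) and 7427 in replicate 2 (signal 23.8). Each had 1 GATA motif, but far from the summit, at 69.5 bp and 87.5 bp. The first also held the AP-1 motif TGACTCA.

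The peaks at Trap1 were carried mainly by replicate 2. That at the Trap1 promoter, chr16:4077806-4078145, had a signal of 18.5. It had no replicate 1 summit even within 500 bp and ranked 13446 in replicate 2, with a signal of 12.6. That in a Trap1 intron, chr16:4074779-4075118, had a signal of 16.5; it ranked 191840 in replicate 1 (signal 3.86) and 16573 in replicate 2 (signal 10.3). This was the widest gap in rank between the libraries among the 29 peaks. Neither Trap1 peak was in the conservative list, which is shorter, at 15728 entries. A pooled entry inside Crebbp that was not called reproducible, 80060 bp from the first TSS, had a higher signal than either, at 19.8.

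**Figure D1:**
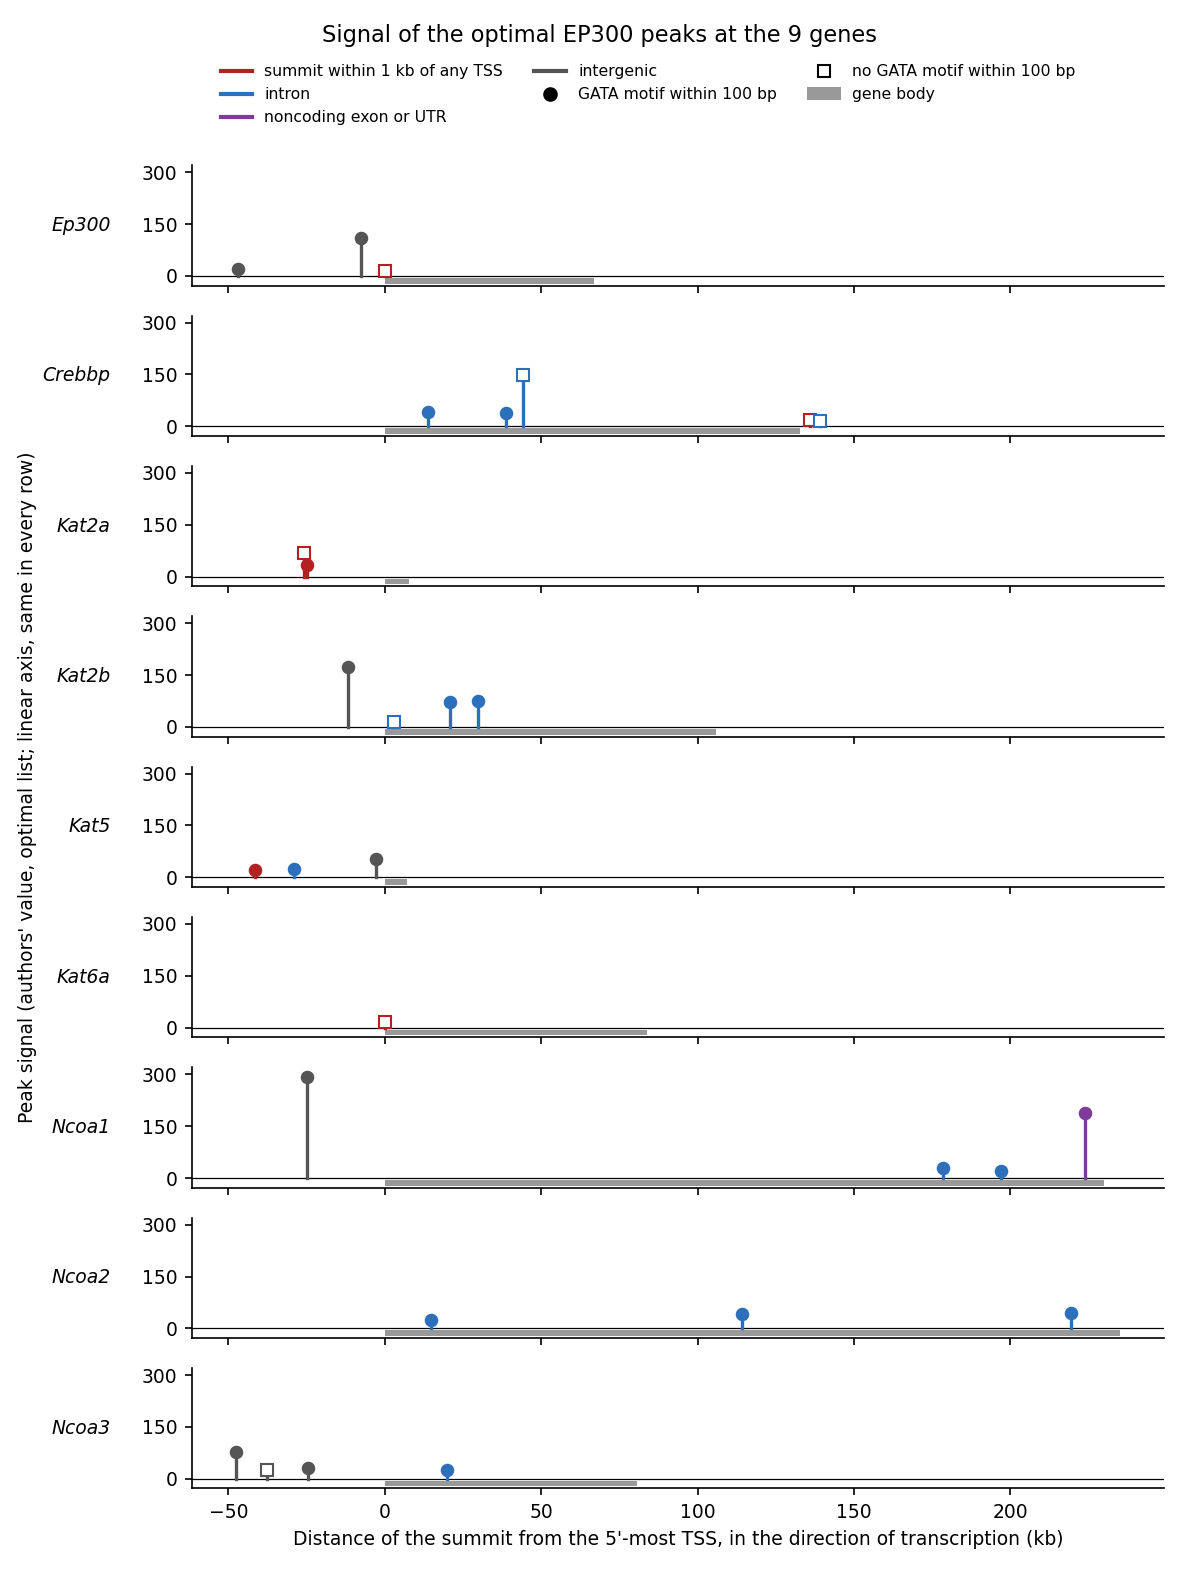
Signal of each of the 29 reproducible EP300 peaks (y axis, the authors' value, linear) against the distance of its summit from the 5′-most TSS of the gene, in the direction of transcription (x axis, kb), with 1 row per gene. Colour gives the location of the summit, filled circles have a GATA motif within 100 bp and open squares have none; the strongest peaks, at Ncoa1, Kat2b, Crebbp and Ep300, all lie away from the gene's own start.

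Of the catalytic subunits of SAGA and ATAC, Kat2b had 3 strong peaks upstream and in its introns, whereas both peaks of Kat2a lay at a neighbour's promoter. Kat2b (ENSMUSG00000000708.14) lies on the plus strand at chr17:53566861-53672720 and had 4 peaks. The strongest, at chr17:53554921-53555153, was intergenic, 11812 bp before the TSS. Its signal was 175, rank 1610. The libraries were nearly level, with a signal of 87.1 at rank 1588 in replicate 1 and 87.2 at rank 1701 in replicate 2. It held 3 GATA motifs and the E-box CAGCTG.

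Both intron peaks next in strength at Kat2b were also in the upper part of the list. The peak at chr17:53596586-53596925 had a signal of 76.3, rank 4500. It ranked 4850 in replicate 1 (signal 34.8) and 4315 in replicate 2 (signal 41.3). The peak at chr17:53587486-53587825 had a signal of 70.9, rank 4851; it ranked 5554 in replicate 1 (signal 30.6) and 4540 in replicate 2 (signal 39.3). Its GATA motif was centred 0.5 bp from the summit, the closest of any of the 29 peaks. The fourth Kat2b peak, in an intron 3045 bp after the TSS, was weak, with a signal of 14.0 and a summit in replicate 2 alone, at rank 26040.

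Kat2a (ENSMUSG00000020918.14), a short gene of 7720 bp on the minus strand at chr11:100704746-100712465, had 2 peaks, both at the promoter of Rab5c, which encodes an endosomal GTPase. The stronger, at chr11:100738226-100738565, had its summit 181 bp before the Rab5c TSS and 25931 bp before that of Kat2a. Its signal was 67.1, rank 5127, with 33.9 in replicate 1 (rank 4992) and 29.8 in replicate 2 (rank 5968). The other, at chr11:100737042-100737381, had a signal of 35.0 and ranked 12639 in replicate 1 (signal 12.8) and 9247 in replicate 2 (signal 18.9). These summits had 8 protein-coding genes with a TSS within 50 kb, so they are tied to Kat2a by distance alone. At the Kat2a TSS itself the pooled list and replicate 2 had no entry within 1 kb, and replicate 1 had 1, with a signal of 3.34 at rank 284405.

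The MYST genes had 4 peaks between them, of low to middling signal. Kat5 (ENSMUSG00000024926.10), 7224 bp long on the minus strand at chr19:5603014-5610237, had 3 peaks. The strongest, at chr19:5613008-5613347, was intergenic, 2941 bp before its TSS, with a signal of 54.2 at rank 6247. Replicate 2 ranked it higher, at 5346 with a signal of 33.4, than replicate 1, at 7976 with a signal of 20.9. The others lay at neighbours. The peak in an intron of Rela, the gene of an NF-κB subunit, at chr19:5639102-5639441, had a signal of 23.8. It ranked 10468 in replicate 1 (signal 15.6) and 20379 in replicate 2 (signal 8.81). The peak at the promoter of Sipa1, at chr19:5651629-5651968, had a signal of 21.1 and ranked 14910 in replicate 1 (signal 10.8) and 19142 in replicate 2 (signal 9.21). All 3 held 2 GATA motifs each.

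Kat6a (ENSMUSG00000031540.13), on the plus strand at chr8:22859535-22943259, had a single peak, at its own promoter. The peak had its summit in the 5′ untranslated exon, 81 bp from an annotated TSS, and a signal of 17.4 at rank 14731. Replicate 2 had a summit within 100 bp, with a signal of 12.9 at rank 13155. The closest replicate 1 summit was 139 bp away, with a signal of 13.1 at rank 12321. The ranks in both libraries were thus close, with the summits apart.

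The p160 gene Ncoa1 had the strongest peak of all 9 genes. Ncoa1 (ENSMUSG00000020647.10) spans 229821 bp on the minus strand at chr12:4247362-4477182 and had 4 peaks. The strongest, at chr12:4501958-4502216, was intergenic, 24901 bp before the first TSS. Ncoa1 was the only coding gene with a TSS within 50 kb. The nearest TSS of any gene, 7234 bp away, was that of 2900045O20Rik, which is not a protein-coding gene. The signal of this strongest peak was 291, rank 531. It ranked 651 in replicate 1 (signal 134) and 446 in replicate 2 (signal 154). It held 3 GATA motifs, the nearest centred 6.5 bp from the summit, and the E-box CAGCTG.

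The next Ncoa1 peak was at the other end of the gene. At chr12:4253258-4253499 and 223819 bp after the first TSS, its summit lay in an exon that is untranslated in the annotation. Its signal was 189, rank 1405, with 95.5 in replicate 1 (rank 1352) and 92.7 in replicate 2 (rank 1539). The third, in an intron at chr12:4298636-4298975, had a signal of 29.9 and ranked 11826 in replicate 1 (signal 13.7) and 10026 in replicate 2 (signal 17.3). The fourth, also in an intron, had a signal of 20.9. All 4 Ncoa1 peaks carried a GATA motif within 25 bp of the summit.

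Ncoa2, though as long a gene, had only peaks of middling to low strength. Ncoa2 (ENSMUSG00000005886.14) spans 234979 bp on the minus strand at chr1:13139105-13374083, and its 3 peaks were all in introns. That at chr1:13154476-13154815 had a signal of 43.1, rank 7743. Replicate 2 placed it at rank 6378 with a signal of 27.8, whereas the closest replicate 1 summit was 142 bp away, with a signal of 13.0 at rank 12426. The peak at chr1:13259589-13259928 had a signal of 41.8 and almost the same rank in both libraries, 8433 in replicate 1 (signal 19.7) and 8429 in replicate 2 (signal 20.8). It carried 3 GATA motifs and the AP-1 motif. The peak at chr1:13358983-13359322 had a signal of 24.3 and ranked 15050 in replicate 1 (signal 10.7) and 15525 in replicate 2 (signal 10.9).

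At Ncoa3 the peaks lay mostly upstream. Ncoa3 (ENSMUSG00000027678.17) is on the plus strand at chr2:165992636-166073242 and had 4 peaks, 3 of them intergenic and before the TSS. The strongest, at chr2:165944955-165945294, was 47511 bp from the Ncoa3 TSS and 46109 bp from a TSS of Zmynd8, so it lay between both genes and slightly closer to Zmynd8. Its signal was 77.1, rank 4440, with 40.6 in replicate 1 (rank 4200) and 33.0 in replicate 2 (rank 5410).

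The libraries differed more at the other upstream peaks of Ncoa3. The peak at chr2:165967892-165968231, with a signal of 31.5, ranked 19176 in replicate 1 (signal 8.70) and 7813 in replicate 2 (signal 22.6). The peak at chr2:165954801-165955140, with a signal of 26.6, went the other way, at 9568 in replicate 1 (signal 17.2) and 19479 in replicate 2 (signal 9.10). The fourth peak, in an intron, had a signal of 23.8.

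Set side by side, the strongest peaks of the 9 genes ran from 17.4 at Kat6a to 291 at Ncoa1, with a median of 77.1. Over the 11815 protein-coding genes with a peak by the same rule, the median was 74.3. Ncoa1, Kat2b, Crebbp and Ep300 came first in that order in the reproducible list and in each library. Below them the order was not stable. Kat5 was under Ncoa3 and Kat2a in replicate 1 and above both in replicate 2, so its place among these 3 neighbours is not fixed by 2 libraries, whereas Ncoa3 was above Kat2a in both. Of all 21728 protein-coding genes, 4.17% had a peak as strong as that of Ncoa1 or stronger. The share was 11.9% for Kat2b, 14.9% for Crebbp, 20.2% for Ep300 and 52.1% for Kat6a, for which it is close to the share of genes with any peak.

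All 9 genes had a peak, against 54.4% of protein-coding genes. They had a median of 3 peaks per gene, from 1 to 5, against 1 over all genes. The stretch searched was also longer, with a median of 174795 bp against 104402 bp, and its part in the counts was not tested. Per 100 kb searched, the 9 genes had a median of 1.99 peaks, from 0.648 at Kat6a to 2.82 at Kat5, against 0.754 over all genes. The genes were chosen with earlier results from these data known, so these counts are a description.

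**Figure D2:**
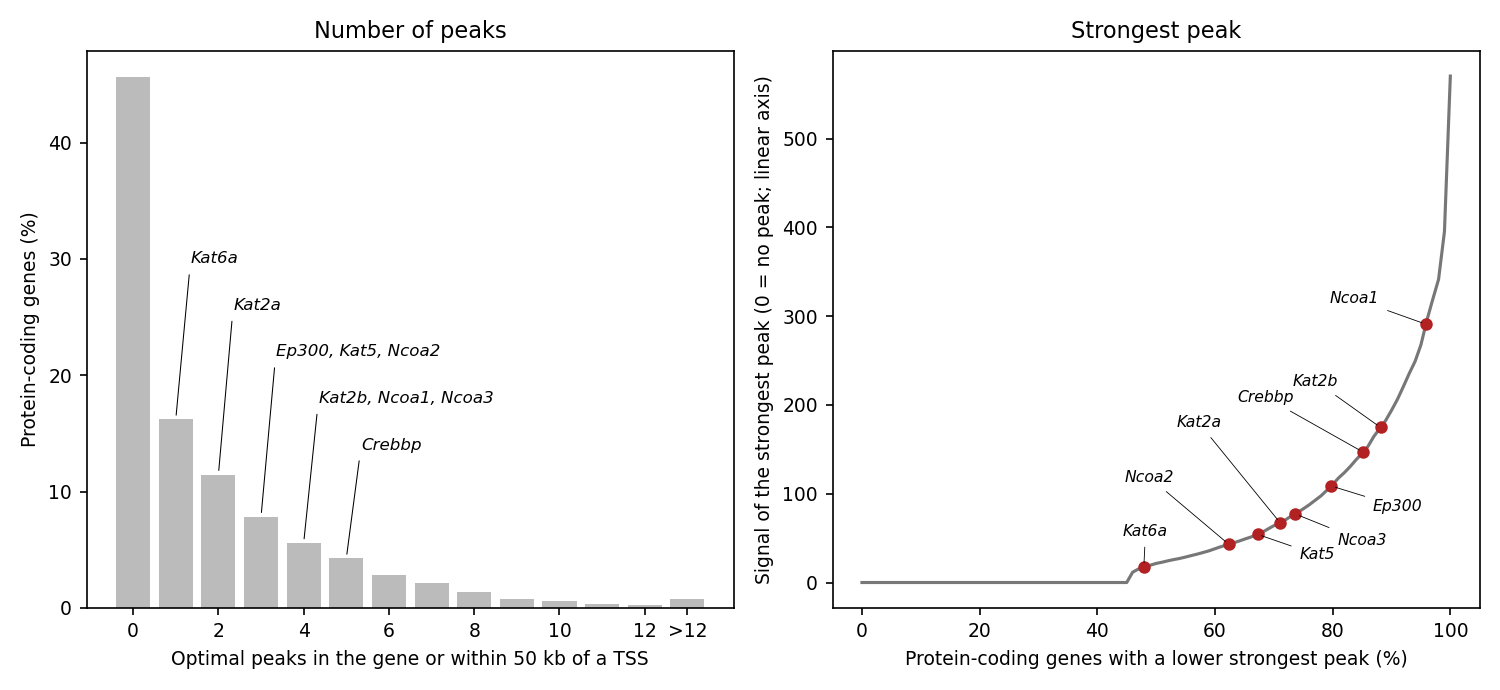
Left, the share of all 21728 protein-coding genes (y axis, %) by number of reproducible peaks in the gene or within 50 kb of a TSS (x axis), with the bars that hold the 9 genes named. Right, the signal of each gene's strongest peak (y axis, the authors' value, linear, 0 for no peak) against the share of genes with a lower one (x axis, %), with the grey line over all genes and red points for the 9 genes; Kat6a is the lowest of the 9 and Ncoa1 the highest.

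Of the 29 peaks, 15 were inside the assigned gene, and the assigned gene was the nearest coding gene for 22. It was the only coding gene with a TSS within 50 kb for 15. These counts were not made over all peaks. Peaks within 1 kb of any TSS numbered 6 (20.7%), against 26.2% of all reproducible peaks. Among these 6, the genes' own promoters accounted for 2, those of Ep300 and Kat6a, and the others were at Trap1, Rab5c and Sipa1. Counted by gene, 2 of the 9 genes had a reproducible peak within 1 kb of an own TSS, against 15.5% of all protein-coding genes. A further 14 peaks were in introns, 8 were intergenic and 1 was in the untranslated exon of Ncoa1.

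At the first TSSs of the genes, the pooled list had entries about as often as over all genes. Crebbp, Kat2a, Ncoa1, Ncoa2 and Ncoa3 had no entry of the pooled list within 1 kb of the 5′-most TSS, and such genes made up 58.4% of all protein-coding genes. Counted over any of their own TSSs, Crebbp had 3 pooled entries within 1 kb, Ncoa1 had 2 and Ncoa2 had 1, and Kat2a and Ncoa3 had none. At the first TSS, Kat2b had 1 entry, with a pooled signal of 5.27 at rank 287760 of 300000. Kat5 had 1 entry with a signal of 8.49 at rank 56848. The Ep300 and Kat6a starts, at 17.5 and 17.4 in the pooled list, were the highest of the 9.

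The 29 peaks were of ordinary strength. Their signal had a median of 35.0 (13.4 to 291), against 38.5 over all reproducible peaks, and 14 of them were above that overall median. The 3 in the strongest decile were those upstream of Ncoa1 and Kat2b and at the 3′ end of Ncoa1. The 6 peaks near a TSS had a median of 19.8, against 31.5 for all such peaks. For the 23 others it was 41.8, against 42.2. The authors' score had its highest value of 1000 at 19 of the 29 (65.5%), against 69.5% of all peaks.

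GATA motifs were found at 21 of the 29 peaks within 100 bp of the summit (72.4%), against 74.7% of all reproducible peaks. They were at 19 of the 23 peaks away from a TSS, against 86.3%, and at 2 of the 6 peaks near one, against 42.1%. The motif was centred within 25 bp of the summit at 14 peaks (48.3%), close to the 47.5% over all peaks. Peaks with at least 2 GATA motifs numbered 15 (51.7%), against 41.9% of all. These shares lie near the background. GATA is the core of the sequence that GATA1 and related factors bind, but a match describes the sequence and is not a measured site.

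Strength and motif went together among the 29 peaks as they did in the whole list. The 21 peaks with a GATA motif had a median signal of 41.8 (20.7 to 291), and the 8 without had 18.0 (13.4 to 147). Over all peaks the medians were 46.3 and 25.2. The 3 strongest peaks without a GATA motif were the Crebbp intron peak at 147, the Rab5c promoter peak at 67.1 and an upstream peak of Ncoa3 at 26.6.

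**Figure D3:**
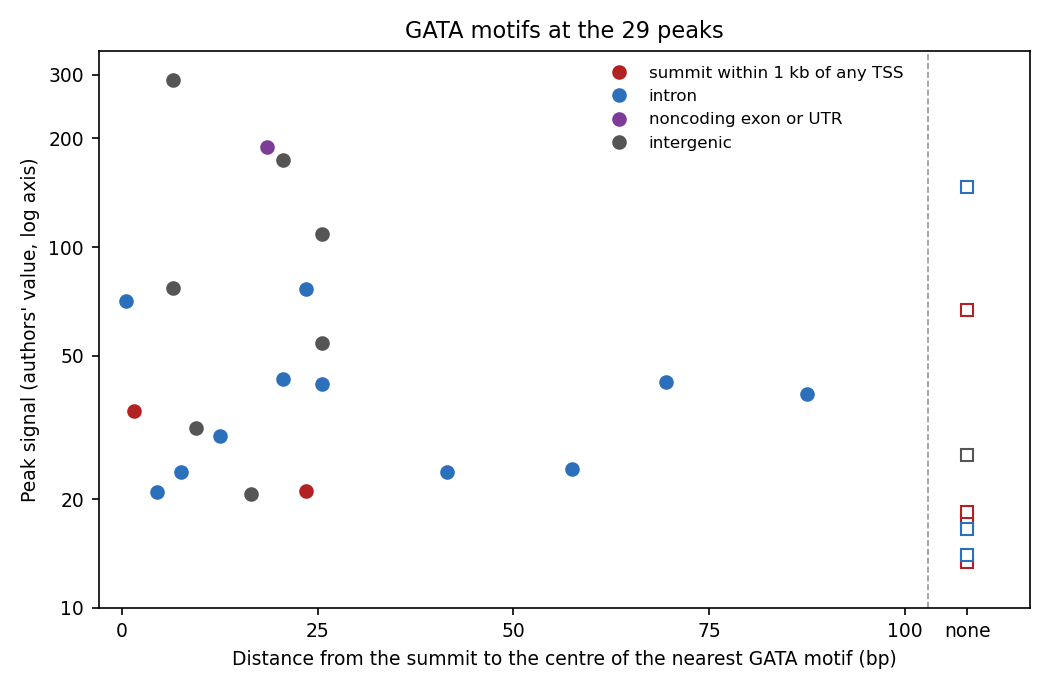
Signal of each of the 29 peaks (y axis, the authors' value, log axis) against the distance from its summit to the centre of the nearest GATA motif (x axis, bp), with peaks lacking a motif within 100 bp as open squares at the right. Colours give the location of the summit; the 3 strongest peaks have a motif within 25 bp, and the Crebbp intron peak at 147 stands highest among the 8 without one.

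Other motifs were found less often. The composite of CTG and GATA with 9 bases between them, a form bound by complexes of TAL1 and GATA1, was at 4 peaks (13.8%), against 18.9%. These were 1 Kat2b intron peak, the strongest Kat5 peak and 2 upstream peaks of Ncoa3. With 8 bases between, a spacing added after the data were seen, it was at 5 peaks (17.2%), against 11.5%, among them the strongest Ep300 peak. Either spacing was found at 9 peaks (31.0%), against 29.1%. A GATA motif can be part of a composite, so these counts overlap with those above.

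The remaining motifs were searched on both strands in the same window. The NF-Y motif CCAAT was at 6 peaks (20.7%, against 21.6%), including all 3 Crebbp intron peaks and the Ep300 promoter. The E-box CAGCTG was at 4 (13.8%, against 14.9%), the AP-1 motif TGACTCA at 2 (6.90%, against 5.91%) and the CACCC motif CCACACCC at 1, in Trap1 (3.45%, against 4.34%). The cyclic AMP response element TGACGTCA, the ETS motif CCGGAAGT and the E-box CACGTG were at none of the 29, and they were at 0.552%, 1.34% and 3.99% of all peaks. The absence of these letters says nothing about the factors. Base composition was near the background away from TSSs, with a median of 47.3% G and C against 46.8%. Near TSSs it was 63.9% against 55.2%.

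Both libraries had a summit within 100 bp of 24 of the 29 peaks (82.8%), against 84.3% of all reproducible peaks. The library lists run to 300000 entries, so weak entries count as matches here. With each library cut to its strongest 17055 entries, 17 of the 29 peaks had a summit in both. The conservative list held 26 at the same summit (89.7%), against 78.4%. It also has entries that the optimal list lacks. By the same gene rule it had 27 peaks at the 9 genes, with 5 at Ncoa1 against 4. The Ep300 promoter peak was seen in replicate 1 only. The Trap1 promoter peak near Crebbp, the weakest Kat2b peak, the Kat6a peak and the strongest Ncoa2 peak were seen in replicate 2 only. At 3 of these 5, Ep300, Kat6a and Ncoa2, the library without a match had a summit a little farther off, from 139 to 211 bp away.

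Where both libraries had the peak, their ranks were mostly close. Replicate 1 ranked 11 of the 24 higher and replicate 2 ranked 13 higher. The larger rank was a median of 1.29 times the smaller (1.00 to 11.6), and it was under 1.5 times for 18 peaks. The 3 peaks with more than a 2-fold gap were 2 upstream peaks of Ncoa3, at 2.04 and 2.45 times, and the Trap1 intron peak near Crebbp, at 11.6 times.

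**Figure D4:**
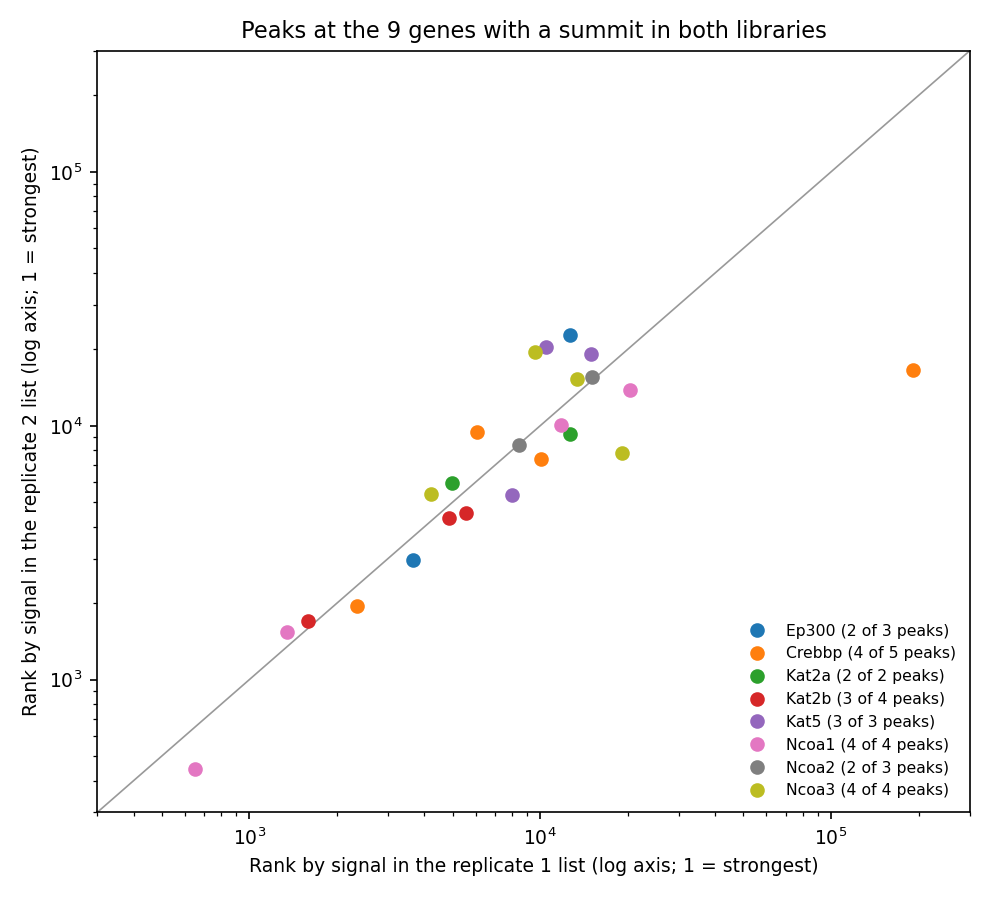
Rank of each of the 24 peaks with a summit in both libraries, by signal in the replicate 1 list (x axis, log) and in the replicate 2 list (y axis, log), coloured by gene, with the line of equal ranks. Rank 1 is the strongest of 300000 entries; most points lie along the line, and the point far to the right is the Trap1 intron peak near Crebbp, at 191840 in replicate 1 and 16573 in replicate 2.

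The wider pathway was described with 6 lists of 89 genes: other acetyltransferases, subunits of the complexes that the 9 enzymes work in, binding partners, and the deacetylases that remove the mark. Of these, 73 (82.0%) had a peak by the same rule, against 54.4% of all protein-coding genes. The number fell to 45 when each peak was given to its nearest coding gene alone. The share of all protein-coding genes by that rule was not computed, so 45 has no background here. The stretch searched had a median of 118823 bp for the listed genes, against 104402 bp over all genes, and its part in the count was not tested. A reproducible peak at their own promoter was present for 30 (33.7%), against 15.5%. These lists, too, were drawn up with earlier results from these data known.

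All 8 other acetyltransferase genes had a peak, against 54.4% of all protein-coding genes. At their own promoter, 4 had one (50%, against 15.5%). The strongest was for Kat7, which encodes HBO1, with a signal of 392 at an intronic site nearest to the neighbouring gene Fam117a. Next was Hat1, of the acetyltransferase that modifies newly made histone H4, with a signal of 194 at an intronic site nearest to Metap1d. For both the peak was nearest to a different coding gene.

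Among the SAGA and ATAC subunit genes, 17 of 23 had a peak (73.9%, against 54.4%), and 9 had one at their own promoter (39.1%, against 15.5%). The strongest were near Taf5l, at 401, and near Eny2, at 379.7. Both were at intronic sites nearest to a neighbour, the mitochondrial transporter gene Abcb10 for Taf5l and Pkhd1l1 for Eny2. Abcb10 acts in haem synthesis in red cell precursors.

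Of the NuA4 subunit genes, which encode the partners of KAT5, 11 of 16 had a peak (68.75%, against 54.4%). At their own promoter, 6 had one (37.5%, against 15.5%). Meaf6 had the strongest, at 177 at an intronic site nearest to Gnl2. Ep400, the gene of the large ATPase of the complex, followed with 104 at an intergenic site 1392 bp from Pus1. Dmap1, Mrgbp, Morf4l1, Morf4l2 and Yeats4 had none.

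All 8 genes for subunits of the MOZ, MORF and HBO1 complexes had a peak, against 54.4% of all protein-coding genes. At their own promoter, 4 had one (50%, against 15.5%). Brpf3, a scaffold subunit, had a signal of 329 with the summit 8 bp from its own TSS, far above the promoter peaks of Ep300 and Kat6a. Brd1, a related scaffold, had one of 209 at an intronic site nearest to Zbed4.

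Of the genes for partners of CBP, EP300 and the p160 coactivators, 14 of 16 had a peak (87.5%, against 54.4%). At their own promoter, 5 had one (31.25%, against 15.5%). Cited4, which encodes a protein that binds the same domain of CBP and EP300 as hypoxia-inducible factor, had a signal of 384 at an intergenic site 8374 bp away. Carm1, the arginine methyltransferase recruited by p160 proteins, had 268 in its own intron. Cited1 and Ppargc1a had no peak.

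Of the deacetylase and sirtuin genes, which encode the opposing enzymes, 15 of 18 had a peak (83.3%, against 54.4% of all protein-coding genes). At their own promoter, 2 had one (11.1%, against 15.5%). Hdac11 had the strongest, with 306 in its own intron, followed by Sirt1, with 273 at an intronic site nearest to Herc4. Hdac2, Hdac10 and Sirt5 had no peak. The median of the strongest peaks in this list was 49.6, the lowest of the 6 lists, against 77.1 for the 9 genes. The median was 70.3 over all listed genes with a peak and 74.3 over all protein-coding genes with a peak.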

How the data were processed

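ChIP-seq peak lists for EP300 in mouse fetal liver were analysed with the mm10 coordinates they were given. Per the file listings that the authors deposited, each library list was called against 1 control file, the pooled list used both, and the optimal and conservative lists were thresholded by irreproducible discovery rate (IDR); the reproducible list in the text is the optimal one. Aligner, peak caller and threshold were not given in the sources used here. The authors' signal is a value per peak that is never negative, on a scale of its own in each list. The score deposited by the authors is a whole number up to 1000. No read totals are in the lists, so precision is limited to the agreement of 2 libraries.

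Summits were assigned to genes of GENCODE vM21 within 50 kb of a TSS, and 12 peaks off chromosomes 1 to 19 and X were left out. A library matched a peak when its summit was within 100 bp. Motif searches covered both strands, 100 bp to either side of each summit. With 1 group, no test was made, and counts stand beside those over all genes or peaks. The text names every peak of Ep300 and Crebbp, the 3 strongest of each other gene, and from each list the 2 genes with the strongest peak and, where under 6 lacked one, those without. The sequence at the Kat6a peak is not reported here. The genes, lists and rules were chosen with earlier results of these data known. The alternatives were other gene and promoter windows, other peak lists, the nearest gene only, each library alone, other matching distances and other motif settings. Python 3.11.15, numpy 2.4.6 and pandas 2.3.3 were used, and the assignment, matching and motif steps were tested on simulated data.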

Additional observations from a re-analysis of the deposited data

How the results depend on the processing

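The number of peaks at the 9 genes was 29 and became 44 with a window of 100 kb and 14 when only peaks above the median signal were used. The 6 peaks near a TSS became 11 with a promoter window of 2.5 kb. The 73 listed genes with a peak fell to 45 when each peak was given to its nearest coding gene alone, a rule not applied to all genes. With each library alone in place of both, the 9 genes had 26 to 29 peaks, all 9 had a peak, and 74 to 76 listed genes did. Kat2a had no peak within 20 kb or with the nearest gene alone, and Kat6a had none above the median signal. Matching within 25 bp left 16 of the 29 peaks in both libraries, and matching to the strongest 17055 entries of each library left 17. Neither share was computed over all peaks. GATA motifs were at 18 of the 29 peaks within 50 bp of the summit, a share not computed over all peaks. The letters GATA alone were at 24 within 100 bp (82.8%), against 84.6% of all reproducible peaks. The composite counts at 8 bases, and at 8 or 9, were added after the data were seen. No paired analysis was possible because the libraries form 1 group and no result comes from a test. With the depth unknown, a missing entry does not show that EP300 was absent, and peaks are tied to genes by distance only.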
